A study of Mus musculus with 16 samples.

Results

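Transcripts of 39 mouse genes of neutrophil granules and neutrophil effector functions were followed by RNA sequencing in T cell leukaemias (T-ALL) of 16 mice. The 39 genes were fixed as a list of symbols, each symbol matched 1 row of the count tables, and the tables held 41214 genes in all. They fall into 3 classes: 5 primary granule genes that are transcribed in promyelocytes, 12 secondary granule genes and 22 late effector genes. Each library came from a different mouse, and each of 8 groups held 2 mice. In the ICN p53-ko leukaemias, driven by ICN (an activated form of Notch) in mice without p53, the groups were Miz1 deltaPOZ Lck, Miz1 deltaPOZ Vav and Miz1 wt. The ICN leukaemias of p53-wt mice had the same 3 groups. The leukaemias without ICN were all p53 ko, and their groups were Miz1 deltaPOZ Vav and Miz1 wt. Miz1 is a zinc finger transcription factor, and deltaPOZ mice express it without its POZ domain. The suffixes Lck and Vav stand in the titles of the deltaPOZ mice and are not explained in the labels, so they are used as group names only. Organ, cell sorting, age and sex were not stated in the labels. All mice are labelled C57Bl6.

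Neutrophils store their antimicrobial proteins in granules that are filled in sequence as the cell matures in the bone marrow. Promyelocytes transcribe the contents of primary (azurophil) granules, such as myeloperoxidase and the serine proteases. Myelocytes and metamyelocytes then transcribe the contents of secondary (specific) granules, such as lactoferrin and cathelicidin. Band and segmented cells transcribe gelatinase, chemoattractant receptors and inflammatory mediators. C/EBP factors and PU.1 are transcription factors known to drive granulocyte genes.

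The promoters of 4 members are shown because the results turn on them: Elane, Camp and Cxcr2 stand for the 3 classes, and Cyba is the member with the smallest fold change in the ICN and p53 comparisons. The sequences are those of RefSeq on GRCm38.p6, from 250 bases before to 50 bases after the annotated start, written in the direction of transcription. Elane lies at chr10:79886062-79886361 (plus strand), Camp at chr9:109849407-109849706 (minus strand), Cxcr2 at chr1:74153744-74154043 (plus strand) and Cyba at chr8:122432891-122433190 (minus strand). Capitals mark matches to GAGGAA or its reverse complement TTCCTC, the core of sites bound by PU.1.
Elane: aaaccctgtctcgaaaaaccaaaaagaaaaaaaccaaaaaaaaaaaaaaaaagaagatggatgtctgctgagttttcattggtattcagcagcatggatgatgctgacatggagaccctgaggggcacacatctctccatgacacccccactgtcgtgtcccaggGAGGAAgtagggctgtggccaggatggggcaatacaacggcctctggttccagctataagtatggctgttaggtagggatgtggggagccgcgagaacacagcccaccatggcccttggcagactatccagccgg
Camp: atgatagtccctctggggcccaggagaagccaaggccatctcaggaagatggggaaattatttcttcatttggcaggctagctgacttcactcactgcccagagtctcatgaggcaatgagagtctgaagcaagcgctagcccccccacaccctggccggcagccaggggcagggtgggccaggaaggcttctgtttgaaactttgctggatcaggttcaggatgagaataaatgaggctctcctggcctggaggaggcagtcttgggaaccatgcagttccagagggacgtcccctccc
Cxcr2: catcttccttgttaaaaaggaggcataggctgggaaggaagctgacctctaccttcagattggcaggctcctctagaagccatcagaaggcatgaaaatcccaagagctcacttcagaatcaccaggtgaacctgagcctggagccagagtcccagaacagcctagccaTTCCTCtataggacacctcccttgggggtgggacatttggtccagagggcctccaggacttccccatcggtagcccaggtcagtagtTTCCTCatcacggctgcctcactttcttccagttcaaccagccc
Cyba: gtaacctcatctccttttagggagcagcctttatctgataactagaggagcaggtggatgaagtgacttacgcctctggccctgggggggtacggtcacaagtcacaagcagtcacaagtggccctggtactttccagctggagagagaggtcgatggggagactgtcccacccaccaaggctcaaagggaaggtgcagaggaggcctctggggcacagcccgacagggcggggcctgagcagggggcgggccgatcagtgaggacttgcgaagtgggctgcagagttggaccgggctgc
Elane held 1 such match and Cxcr2 held 2, while Camp and Cyba held none. The other motif searched, TTNNGCAA or its reverse complement TTGCNNAA for C/EBP, had no match in these 4. It was found in Ltf and at 2 places in Ngp, a pair of secondary granule genes whose promoters at chr9:111019042-111019341 (plus strand) and chr9:110419558-110419857 (plus strand) are shown for that reason. Capitals in Ltf mark a match to each motif, and in Ngp they mark both C/EBP matches.
Ltf: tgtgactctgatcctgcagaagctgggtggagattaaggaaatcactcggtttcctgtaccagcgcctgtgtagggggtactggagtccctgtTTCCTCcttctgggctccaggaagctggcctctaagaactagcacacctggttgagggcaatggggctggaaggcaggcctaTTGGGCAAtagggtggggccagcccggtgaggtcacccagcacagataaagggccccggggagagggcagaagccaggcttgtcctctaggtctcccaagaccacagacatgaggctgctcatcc
Ngp: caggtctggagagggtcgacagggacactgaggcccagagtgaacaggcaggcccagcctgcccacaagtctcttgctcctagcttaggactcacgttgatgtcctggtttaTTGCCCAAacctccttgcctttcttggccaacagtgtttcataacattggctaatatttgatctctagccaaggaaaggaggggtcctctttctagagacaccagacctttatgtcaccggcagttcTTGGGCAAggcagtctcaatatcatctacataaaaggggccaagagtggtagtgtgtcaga
RefSeq promoters were found for 35 of the 39 members, with 36 promoters in all because Ly6g has several. Hp, Mmp9, Ncf4 and Trem3 had none in the table. The PU.1 motif stood in 25 of the 36 (69.4%), against 28.3% of all 32851 mouse promoters of this length, and the C/EBP motif in 10 of the 36 (27.8%), against 10.8%. All 5 primary granule promoters held a PU.1 match. The C/EBP match stood in 5 of 11 secondary granule promoters, in 1 of 5 primary granule promoters and in 4 of 20 late effector promoters. Both motifs can overlap each other, and a match describes the letters only.

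The libraries held 36463524 to 68523196 gene counts. Markers of the T lineage were present in every library, with Cd3d at 106.8 to 204.7 CPM, which are counts scaled to library size with TMM factors, and the 10 markers of that list summed to 2399.1 to 5319.6 CPM with ICN and to 4608.5 to 11206.9 CPM without. All 39 neutrophil genes passed the filter on low counts, which asks for 10 counts at the median depth in at least 2 libraries. The libraries without ICN met it on their own for 17 of them, and 22 passed through the ICN libraries only.

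Neutrophil transcripts were a small and very uneven part of these leukaemia libraries. The 5 primary granule genes summed to 271 and 439.5 (Lck), 41.4 and 166 (Vav) and 138 and 2.58 (Miz1 wt) CPM in ICN p53-ko mice and to 9.84 and 6.28 (Lck), 12.6 and 8.49 (Vav) and 55.2 and 4.12 (Miz1 wt) CPM in ICN p53-wt mice. Without ICN they summed to 0.0916 and 0.104 (Vav) and 0.050 and 0.0717 (Miz1 wt) CPM. Every ICN library was thus above every library without ICN, and the ICN libraries themselves spanned 170-fold. The 12 secondary granule genes summed to 5635 and 3480.2 (Lck), 294 and 1077 (Vav) and 2623 and 25.6 (Miz1 wt) CPM in ICN p53-ko mice, to 149.7 and 96.1 (Lck), 242 and 82.1 (Vav) and 535 and 30.7 (Miz1 wt) CPM in ICN p53-wt mice and to 2.5 and 5.66 (Vav) and 1.93 and 4.87 (Miz1 wt) CPM without ICN. The order of the libraries was similar, and the ICN libraries spanned 220-fold. The 22 late effector genes summed to 6411 and 4952 (Lck), 514 and 1188 (Vav) and 3105 and 181 (Miz1 wt) CPM in ICN p53-ko mice, to 409 and 238 (Lck), 539 and 268 (Vav) and 768 and 139.9 (Miz1 wt) CPM in ICN p53-wt mice and to 64.5 and 136 (Vav) and 123 and 140.5 (Miz1 wt) CPM without ICN. For this class the lowest ICN library fell just below the highest library without ICN. Cyba, which is also made by cells other than phagocytes, made up a large part of both of these sums. In bulk RNA a lower level of these transcripts can come from fewer granulocytes or from less RNA per cell, and these cannot be told apart here.

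**Figure D1:**
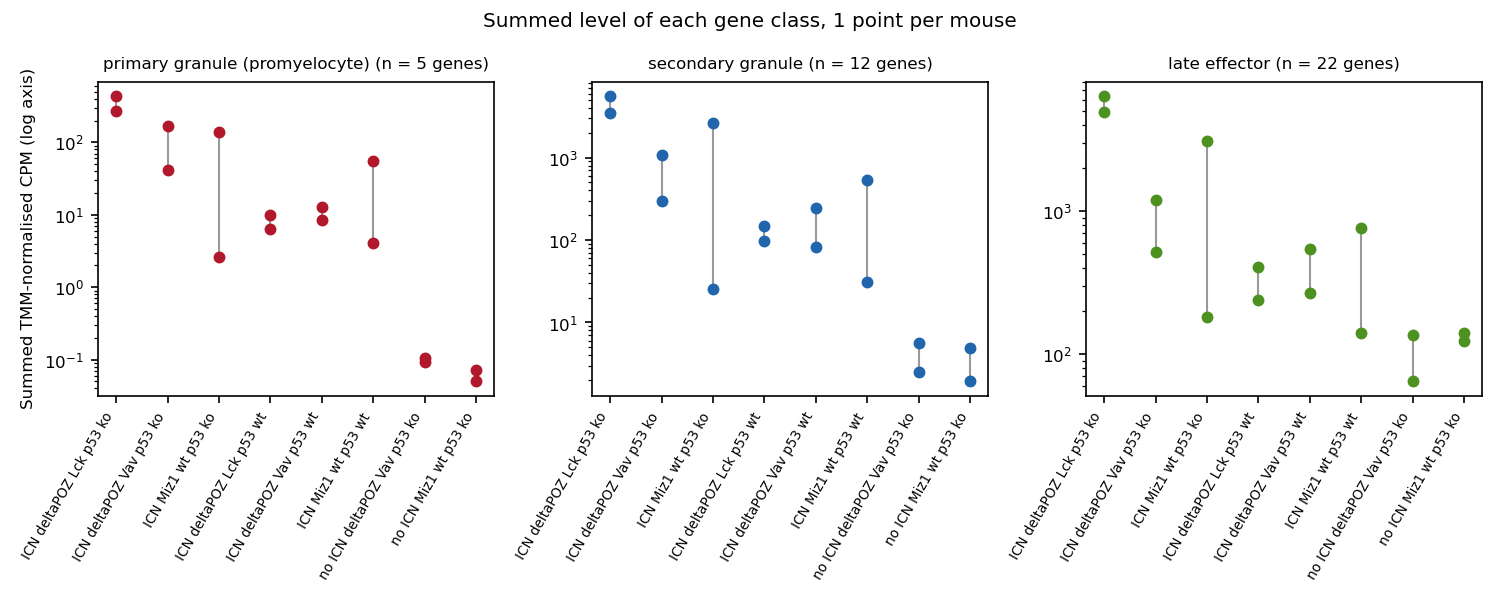
Summed TMM-normalised CPM (log axis) of the primary granule, secondary granule and late effector genes, with 1 point per mouse and a grey line joining the 2 mice of a group. Both ICN Lck p53-ko mice are high in each class, the 2 ICN Miz1-wt p53-ko mice lie 53.4-fold, 102-fold and 17.2-fold apart, and the 4 mice without ICN are lowest in the granule classes.

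The high libraries were nearly the same in all 3 classes. Both ICN Lck p53-ko mice and the first ICN Miz1-wt p53-ko mouse were the highest for secondary granule and late effector genes, where secondary granule transcripts made up 0.563%, 0.348% and 0.262% of their counts. For primary granule genes the second ICN Vav p53-ko mouse stood above the first ICN Miz1-wt p53-ko mouse. The second ICN Miz1-wt p53-ko mouse was the lowest ICN library for both granule classes and for 15 of the 39 genes, and the second ICN Miz1-wt p53-wt mouse was lowest for 22. The first ICN Lck p53-ko mouse was highest for 28 genes. Mice of 1 group could lie far apart. The higher ICN Miz1-wt p53-ko mouse exceeded the other 53.4-fold in primary granule, 102-fold in secondary granule and 17.2-fold in late effector transcripts. In the ICN Miz1-wt p53-wt pair the ratios were 13.4-fold, 17.4-fold and 5.49-fold. The ICN Lck pairs lay within 1.29-fold to 1.72-fold of each other.

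Among primary granule genes, Mpo (ENSMUSG00000009350, chromosome 11, 87793581 to 87804413) encodes myeloperoxidase, the haem enzyme that makes hypochlorous acid. It lay at 114 and 208 (Lck), 16.8 and 74.5 (Vav) and 67.1 and 1.29 (Miz1 wt) CPM in ICN p53-ko mice, at 4.69 and 2.89 (Lck), 6.74 and 3.26 (Vav) and 24.2 and 1.59 (Miz1 wt) CPM in ICN p53-wt mice and at 0.0687 and 0.104 (Vav) and 0 and 0.0574 (Miz1 wt) CPM without ICN. Its exons overlap the antisense gene Gm11505, and the labels do not say whether the counting used strand. Elane (ENSMUSG00000020125, chromosome 10, 79886247 to 79888215) encodes neutrophil elastase. Its level was 37.9 and 64.8 (Lck), 7.08 and 28.8 (Vav) and 19.5 and 0.179 (Miz1 wt) CPM in ICN p53-ko mice, 1.26 and 0.745 (Lck), 1.6 and 1.09 (Vav) and 10.4 and 0.733 (Miz1 wt) CPM in ICN p53-wt mice and 0.0229 and 0 (Vav) and 0.025 and 0 (Miz1 wt) CPM without ICN. Prtn3 (ENSMUSG00000057729, chromosome 10, 79874476 to 79883174) encodes proteinase 3, next to Elane on the chromosome, and overlaps Plppr3 on the opposite strand. It reached 57.1 and 74.6 (Lck), 7.02 and 24.2 (Vav) and 22.4 and 0.437 (Miz1 wt) CPM in ICN p53-ko mice, 1.66 and 1.38 (Lck), 2.2 and 1.65 (Vav) and 11 and 0.605 (Miz1 wt) CPM in ICN p53-wt mice and 0 and 0 (Vav) and 0 and 0.0143 (Miz1 wt) CPM without ICN. All 3 were highest in the second ICN Lck p53-ko mouse and lowest, among ICN mice, in the second ICN Miz1-wt p53-ko mouse.

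Among secondary granule genes, Ltf (ENSMUSG00000032496, chromosome 9, 111019271 to 111042767) encodes lactoferrin, the iron-binding protein of these granules. It lay at 2138 and 1059.9 (Lck), 97.5 and 251 (Vav) and 474 and 6.85 (Miz1 wt) CPM in ICN p53-ko mice, at 33.4 and 21.2 (Lck), 68.3 and 14.1 (Vav) and 134 and 7.09 (Miz1 wt) CPM in ICN p53-wt mice and at 0.16 and 0.0347 (Vav) and 0 and 0.0287 (Miz1 wt) CPM without ICN. Ngp (ENSMUSG00000032484, chromosome 9, 110419747 to 110423012), neutrophilic granule protein, belongs to the cystatin-like proteins of mouse granules. It lay at 1136 and 813 (Lck), 65.9 and 227 (Vav) and 725 and 5.2 (Miz1 wt) CPM in ICN p53-ko mice, at 29.1 and 20.6 (Lck), 56.2 and 14.1 (Vav) and 145 and 5.62 (Miz1 wt) CPM in ICN p53-wt mice and at 0.0916 and 0 (Vav) and 0 and 0.0143 (Miz1 wt) CPM without ICN. Camp (ENSMUSG00000038357, chromosome 9, 109847379 to 109849617) encodes the cathelicidin antimicrobial peptide. Its level was 696 and 454 (Lck), 36.9 and 132 (Vav) and 201 and 2.28 (Miz1 wt) CPM in ICN p53-ko mice, 11.3 and 7.36 (Lck), 23.3 and 5.95 (Vav) and 54.7 and 3.0 (Miz1 wt) CPM in ICN p53-wt mice and 0.0229 and 0.0174 (Vav) and 0 and 0 (Miz1 wt) CPM without ICN. These 3 granule genes are on chromosome 9, and each was highest in the first ICN Lck p53-ko mouse. Chil3 (ENSMUSG00000040809, chromosome 3, 106147554 to 106167564) encodes a chitinase-like lectin. It has near-identical paralogues, so reads shared with them may be missing from its count. It reached 537 and 506 (Lck), 28.9 and 276 (Vav) and 719 and 2.74 (Miz1 wt) CPM in ICN p53-ko mice, 30 and 20 (Lck), 33.9 and 28.9 (Vav) and 92.7 and 7.58 (Miz1 wt) CPM in ICN p53-wt mice and 1.24 and 4.24 (Vav) and 0.225 and 4.3 (Miz1 wt) CPM without ICN. Unlike the other 3, it was highest in the first ICN Miz1-wt p53-ko mouse, and its ICN and no-ICN values overlapped.

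Among late effector genes, S100a8 (ENSMUSG00000056054, chromosome 3, 90668978 to 90670035) and S100a9 (ENSMUSG00000056071, chromosome 3, 90692632 to 90695721) encode the subunits of calprotectin, an abundant cytosolic protein of neutrophils. S100a9 lay at 3030.2 and 2170.5 (Lck), 216 and 492 (Vav) and 1296 and 22.1 (Miz1 wt) CPM in ICN p53-ko mice, at 114 and 52.1 (Lck), 153 and 38.3 (Vav) and 299 and 19.2 (Miz1 wt) CPM in ICN p53-wt mice and at 0.526 and 0.608 (Vav) and 0.40 and 0.0861 (Miz1 wt) CPM without ICN. S100a8 lay at 1811 and 1627 (Lck), 101 and 344 (Vav) and 915 and 11.7 (Miz1 wt) CPM in ICN p53-ko mice, at 81.6 and 41.4 (Lck), 118 and 31.4 (Vav) and 226 and 15.1 (Miz1 wt) CPM in ICN p53-wt mice and at 0.549 and 0.503 (Vav) and 0.175 and 0.143 (Miz1 wt) CPM without ICN. The pair kept close to each other, with 1.22 to 2.14 S100a9 counts per S100a8 count in ICN libraries. Cybb (ENSMUSG00000015340, chromosome X, 9435252 to 9487771) encodes the catalytic subunit of the phagocyte NADPH oxidase. Its level was 248 and 243 (Lck), 27.4 and 73.2 (Vav) and 142 and 15.7 (Miz1 wt) CPM in ICN p53-ko mice, 27.8 and 21.5 (Lck), 45.2 and 34.2 (Vav) and 47.3 and 11 (Miz1 wt) CPM in ICN p53-wt mice and 5.33 and 6.01 (Vav) and 6.36 and 8.97 (Miz1 wt) CPM without ICN. Cyba (ENSMUSG00000006519, chromosome 8, 122424776 to 122432930) encodes the smaller membrane subunit that pairs with it and is also made by cells other than phagocytes. It stayed between 63.7 and 156.4 CPM with ICN, at 156 and 109 (Lck), 77.4 and 70.1 (Vav) and 78.4 and 75.1 (Miz1 wt) CPM in ICN p53-ko mice and 84.3 and 63.7 (Lck), 90.7 and 102 (Vav) and 64.5 and 69 (Miz1 wt) CPM in ICN p53-wt mice, against 41.9 and 98.3 (Vav) and 67.4 and 102 (Miz1 wt) CPM without ICN. The ratio of Cybb to Cyba counts therefore ran over 14-fold among ICN libraries (0.16 to 2.24).

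Itgam (ENSMUSG00000030786, chromosome 7, 128062640 to 128118491) encodes the integrin chain CD11b of granulocytes, monocytes and some lymphoid cells, and overlaps Gm49368 on the same strand. It lay at 195 and 121 (Lck), 17.7 and 41.3 (Vav) and 102 and 11.5 (Miz1 wt) CPM in ICN p53-ko mice, at 23.1 and 15.9 (Lck), 27.7 and 16.1 (Vav) and 25.2 and 6.96 (Miz1 wt) CPM in ICN p53-wt mice and at 6.87 and 11.6 (Vav) and 27.3 and 9.89 (Miz1 wt) CPM without ICN, so that its groups overlapped. Cxcr2 (ENSMUSG00000026180, chromosome 1, 74153989 to 74161246) encodes the chemokine receptor with which mature neutrophils leave the marrow. Its level was 35.4 and 18.9 (Lck), 2.16 and 3.76 (Vav) and 34.1 and 0.873 (Miz1 wt) CPM in ICN p53-ko mice, 4.02 and 2.23 (Lck), 5.71 and 1.53 (Vav) and 4.15 and 0.476 (Miz1 wt) CPM in ICN p53-wt mice and 0.16 and 0.382 (Vav) and 0.325 and 0.646 (Miz1 wt) CPM without ICN. Per kilobase of exon, the median level over ICN libraries was 354 CPM for S100a9, 39.7 for Camp, 75 for Cyba, 24 for Ltf, 4.41 for Elane, 3.44 for Mpo and 1.28 for Cxcr2.

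**Figure D2:**
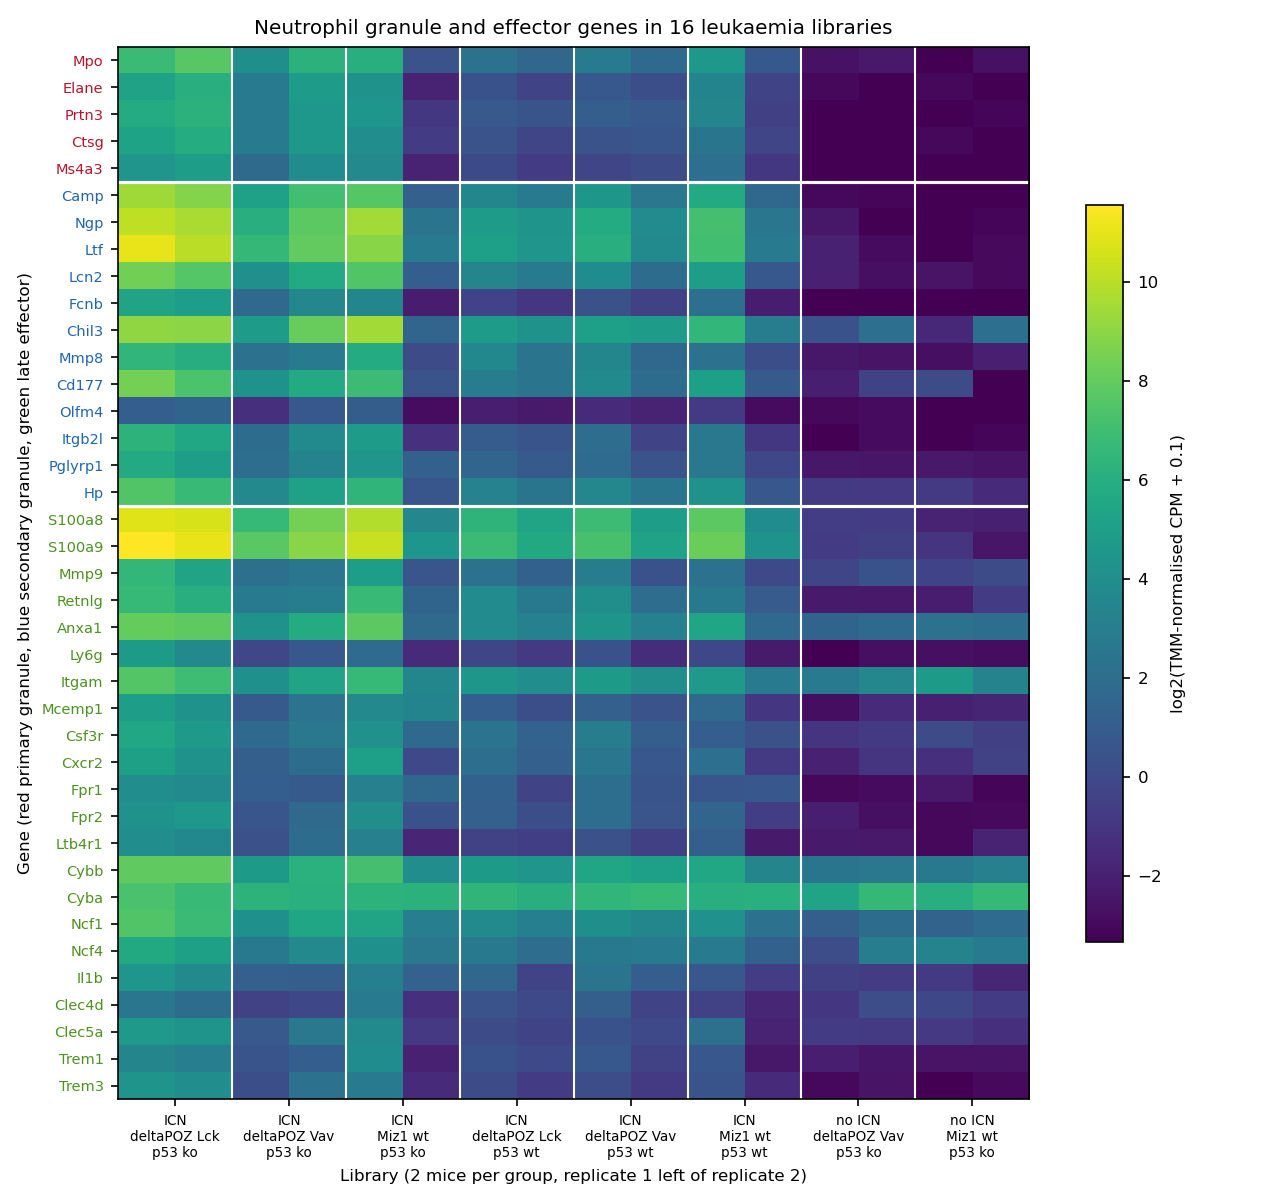
Level of each gene (rows, coloured by class) in each of the 16 libraries (columns, 2 mice per group) as log2 of TMM-normalised CPM plus 0.1. Most rows share the pattern of high Lck p53-ko columns and dark columns without ICN, and Cyba is nearly even across all columns.

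The comparison of ICN with no ICN asks how the driver of the leukaemia is related to these transcripts. It was made among p53-ko mice, with the Miz1-wt and Vav groups weighted equally. Because organ and cell sorting were not stated in the labels, whether they differed between ICN and no-ICN mice is not known. Of the 39 genes, 35 were higher in ICN leukaemias and 0 were lower (edgeR quasi-likelihood test, adjusted p under 0.05 over 17470 genes). Of all genes tested, 24% were called, and 12.9% were called higher. The 22 genes that passed the filter through ICN libraries only, among them all 5 primary granule genes, 9 of 12 secondary granule and 8 of 22 late effector genes, were all called, and they could enter the test only by being high with ICN. Their calls are therefore a description. Of the 17 genes that passed the filter without the ICN libraries, 13 were called higher: 3 of 3 secondary granule genes and 10 of 14 late effector genes. In 10 of these 17 the 4 ICN libraries all lay above the 4 without ICN, which held for 12.1% of all genes, and in 0 did they all lie below (9.56% of all genes). When all 12 ICN libraries were set against the 4, 7 of the 17 lay above, against 8.25% of all genes, and 0 lay below, against 5.74%.

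Because primary granule transcripts were nearly absent without ICN, their changes are given from pooled counts of the 4 ICN and the 4 no-ICN libraries. Here and in the next 4 paragraphs, counts, ratios, log2 values and adjusted p compare only the Miz1-wt and Vav p53-ko mice. Each CPM span and median with ICN covers all 12 ICN libraries, so it also takes in Lck and p53-wt mice outside that comparison. Elane had 2474 counts with ICN and 2 without, a ratio of 1380 after scaling (95% counting interval 382 to 11404). Prtn3 had 2369 counts with ICN and 1 without, a ratio of 2643 (474 to 104456). Ctsg, cathepsin G, had 2127 counts with ICN and 1 without, a ratio of 2373 (426 to 93790), and spanned 0.496 to 59.2 CPM with ICN (median 3.4), against 0, 0, 0.025 and 0 CPM without. Ms4a3, a membrane protein of granulocyte precursors, had 1387 counts with ICN and 0 without, at least 516-fold higher against a floor of 3 counts over the group, and spanned 0.179 to 32.9 CPM with ICN (median 2.22), against 0, 0, 0 and 0 CPM without. Among secondary granule genes Camp had 15638 counts with ICN and 2 without (ratio 8725, interval 2415 to 72051). Fcnb, a ficolin lectin, had 1151 counts with ICN and 0 without, at least 428-fold higher, and spanned 0.119 to 40.5 CPM with ICN (median 2.25), against 0, 0, 0 and 0 CPM without. Olfm4 (olfactomedin 4), which shares exons with Gm6999, had 167 counts with ICN and 3 without, a ratio of 62.1 (20.9 to 304), and spanned 0.0366 to 2.73 CPM with ICN (median 0.279), against 0.0229, 0.0347, 0 and 0 CPM without. Itgb2l, an integrin beta 2-like chain, had 1902 counts with ICN and 3 without, a ratio of 707 (242 to 3434), and spanned 0.337 to 79.1 CPM with ICN (median 3.79), against 0, 0.0347, 0 and 0.0143 CPM without. All of these kept every ICN library above every library without ICN, which held for 8.25% of all genes. This is a description, because all of them passed the filter through ICN libraries only. For Olfm4 the separation rested on the scaling with TMM factors. Olfm4 had 2 counts in the second ICN Miz1-wt mouse of either p53 status and 2 in the second no-ICN Vav mouse. Before TMM scaling, the p53-wt library of these ICN mice was larger than that no-ICN library (57366409 against 54992208 gene counts). The intervals given for the ratios cover counting error only. Mpo had 6958 counts with ICN and 13 without, a ratio of 597 (interval 349 to 1122; adjusted p = 0.00162).

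For the other genes that passed the filter through ICN libraries only, the fitted fold change also depends on the prior count, and ratios of pooled counts are given in its place. Ltf had 34677 counts with ICN and 11 without, a ratio of 3518 (interval 1966 to 7047; adjusted p = 0.00104). Ngp had 40710 counts with ICN and 5 without, a ratio of 9085 (interval 3893 to 27983; adjusted p = 0.00136). Lcn2 encodes lipocalin 2, which binds bacterial siderophores, and spanned 1.61 to 332 CPM with ICN (median 16.4), against 0.16, 0.0521, 0.0751 and 0.0287 CPM without (pooled ratio 759, interval 460 to 1356, adjusted p = 0.00209). Mmp8, neutrophil collagenase, spanned 0.953 to 88.8 CPM with ICN (median 6.22), against 0.0916, 0.0694, 0.050 and 0.143 CPM without (pooled ratio 152, interval 98 to 249, adjusted p = 0.00203). Pglyrp1, a peptidoglycan recognition protein, ran over 0.843 to 55.2 CPM with ICN (median 3.81), against 0.0916, 0.0868, 0.10 and 0.0717 CPM without (pooled ratio 97.3, interval 61.4 to 165, adjusted p = 0.000751). Cd177, a surface protein of neutrophils, spanned 1.29 to 347 CPM with ICN (median 16.1), against 0.137, 0.642, 1.0 and 0 CPM without (log2 6.76, SE 1.57, adjusted p = 0.0105), and 1 no-ICN library approached the lowest ICN library. Hp, haptoglobin, which is stored in granules and also made by liver, spanned 1.49 to 183 CPM with ICN (median 12.2), against 0.481, 0.451, 0.475 and 0.258 CPM without (log2 6.30, SE 1.19, adjusted p = 0.00376). Chil3 rose with log2 6.53, SE 1.57, adjusted p = 0.0123.

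Among late effector genes the calprotectin pair had the largest fold changes of those that passed the filter without the ICN libraries, with S100a9 at log2 10.4, SE 1.51, adjusted p = 0.000962 and S100a8 at log2 10.1, SE 1.52, adjusted p = 0.00115. Of the formyl peptide receptors, which sense bacterial peptides, Fpr1 spanned 0.745 to 15.4 CPM with ICN (median 2.22), against 0.0229, 0.0347, 0.10 and 0.0143 CPM without (pooled ratio 94, interval 47.4 to 219, adjusted p = 0.000187). Fpr2 shares exons with Fpr3 on the same strand and spanned 0.549 to 24.6 CPM with ICN (median 2.56), against 0.137, 0.0521, 0.025 and 0.0287 CPM without (pooled ratio 83.9, interval 47.8 to 163, adjusted p = 0.00123). Retnlg, a resistin-like protein of mature mouse neutrophils, ran over 1.87 to 105 CPM with ICN (median 7.42), against 0.114, 0.104, 0.125 and 0.502 CPM without (pooled ratio 102, interval 77.1 to 137, adjusted p = 0.00192). Mcemp1, a membrane protein of myeloid and mast cells, spanned 0.421 to 31.9 CPM with ICN (median 2.77), against 0.0458, 0.243, 0.15 and 0.187 CPM without (pooled ratio 42, interval 30 to 60.5, adjusted p = 0.000811). Ly6g, the antigen by which mouse neutrophils are stained, ran over 0.11 to 27.5 CPM with ICN (median 0.818), against 0, 0.0521, 0.050 and 0.043 CPM without (pooled ratio 36.3, interval 18.1 to 84.9, adjusted p = 0.00583). Csf3r, the receptor for granulocyte colony-stimulating factor, lay at 1.19 to 45.7 CPM with ICN (median 4.15), against 0.389, 0.469, 0.951 and 0.617 CPM without (log2 3.60, SE 0.62, adjusted p = 0.0022). All 8 genes of this paragraph kept every ICN library above every library without ICN, which held for 8.25% of all genes. For Fpr1, Fpr2, Retnlg, Mcemp1 and Ly6g this is a description, because they passed the filter through ICN libraries only.

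Trem3 and Trem1 are receptors that amplify myeloid activation. Trem3 spanned 0.256 to 20.5 CPM with ICN (median 1.08), against 0.0229, 0.0694, 0 and 0.0287 CPM without (pooled ratio 87.7, interval 42.3 to 219, adjusted p = 0.00258), and Trem1 0.0916 to 14.8 CPM with ICN (median 1.45), against 0.137, 0.0868, 0.0751 and 0.0717 CPM without (pooled ratio 41.9, interval 26.6 to 70, adjusted p = 0.00984). Ltb4r1, the leukotriene B4 receptor, ran over 0.11 to 15.4 CPM with ICN (median 1.19), against 0.114, 0.104, 0.025 and 0.172 CPM without (pooled ratio 26.4, interval 17.5 to 41.5, adjusted p = 0.0123). Mmp9, gelatinase B, spanned 0.879 to 91.7 CPM with ICN (median 4.75), against 0.755, 1.23, 0.701 and 1.0 CPM without (log2 3.30, SE 0.91, adjusted p = 0.0228). Anxa1, the anti-inflammatory annexin A1, lay at 3.33 to 268 CPM with ICN (median 20.4), against 2.65, 3.26, 4.63 and 4.13 CPM without (log2 4.20, SE 1.06, adjusted p = 0.0156). Clec5a, a lectin receptor of myeloid cells, spanned 0.183 to 25.4 CPM with ICN (median 1.46), against 0.504, 0.486, 0.45 and 0.301 CPM without (log2 3.57, SE 1.02, adjusted p = 0.0271). Il1b, interleukin 1 beta, overlaps the antisense gene Il1bos and ran over 0.549 to 22.6 CPM with ICN (median 2.35), against 0.618, 0.538, 0.475 and 0.201 CPM without (log2 2.98, SE 0.63, adjusted p = 0.00664). Of these 7, only Trem3 kept all ICN libraries above the rest (8.25% of all genes). All 7 were called, as was Cxcr2 (log2 4.28, SE 1.04, adjusted p = 0.0133). For Trem3, Trem1 and Ltb4r1 these results are a description, because they passed the filter through ICN libraries only.

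The NADPH oxidase subunits split. Cybb rose with log2 3.26, SE 0.64, adjusted p = 0.00476. Ncf1, the organising cytosolic subunit, overlaps Gtf2ird2 on the opposite strand, rose (log2 3.18, SE 0.59, adjusted p = 0.00329) and spanned 4.54 to 182 CPM with ICN (median 17.2), against 2.17, 3.66, 2.6 and 3.56 CPM without. Ncf4, another cytosolic subunit, did not pass (log2 0.82, SE 0.57, adjusted p = 0.327) and spanned 2.33 to 52.1 CPM with ICN (median 6.48), against 1.03, 7.59, 9.86 and 7.19 CPM without. Cyba did not pass either (log2 -0.04, SE 0.25, adjusted p = 0.937). The remaining genes that did not pass were Itgam (log2 1.64, SE 0.64, adjusted p = 0.0844) and Clec4d, a lectin receptor of myeloid cells (log2 1.23, SE 0.77, adjusted p = 0.273), which spanned 0.202 to 7.13 CPM with ICN (median 0.858), against 0.412, 1.04, 0.851 and 0.517 CPM without.

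**Figure D3:**
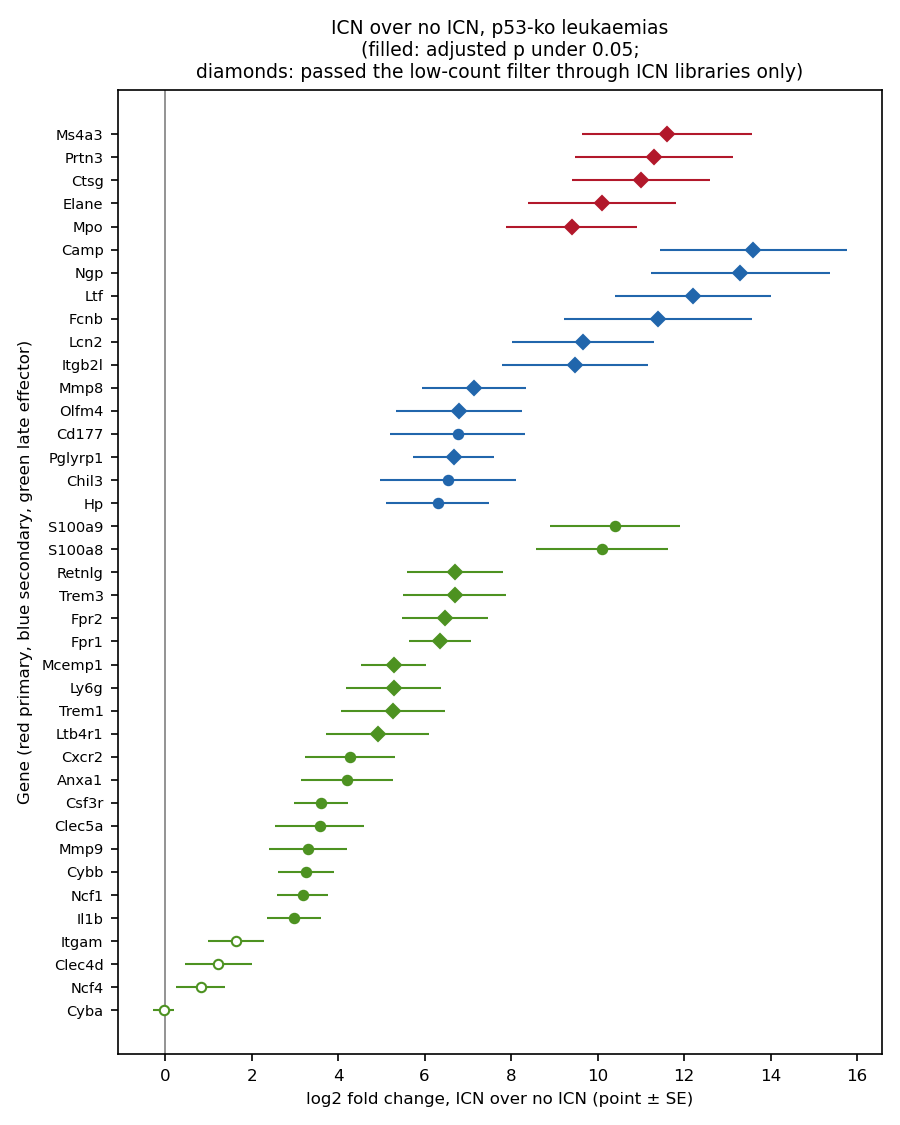
log2 fold change (point, with its SE as bar) of each gene, ICN over no ICN in p53-ko mice, ordered within class. Filled symbols passed an adjusted p of 0.05 and diamonds mark the 22 genes that passed the low-count filter through ICN libraries only, whose fitted values depend on the prior count. Of the 17 circles 13 are filled, and Itgam, Clec4d, Ncf4 and Cyba are open.

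Leaving out the first ICN Miz1-wt p53-ko mouse, which is 1 of the 4 ICN libraries here, left 28 of 39 genes called and lost Anxa1, Chil3, Clec5a, Cxcr2, Ltb4r1, Mmp9 and Trem1. Markers of other blood cells moved with the same comparison, in which 12.9% of all genes tested were called higher. The marker lists were not split by the low-count filter as the 39 genes were. Markers near 0 without ICN could enter the test only by being high with ICN. The calls of such markers are a description, and their fitted fold changes depend on the prior count. All 8 eosinophil, basophil and mast cell markers rose, and they summed to 7.79 to 209.9 CPM over the 12 ICN libraries and to 0.229 to 1.2 CPM over the 4 without, where Fcer1a was at 0. Ccr3, the eotaxin receptor, had the lowest p of them (log2 4.56, SE 0.45, adjusted p = 7.45e-05), followed by Prg2, which encodes eosinophil major basic protein (log2 7.34, SE 0.93, adjusted p = 0.000392). Of 11 erythroid markers 10 rose, with sums of 5891 to 28031 CPM with ICN against 361.2 to 1051 CPM without and Car1 at 0 without ICN, and Klf1, the erythroid transcription factor, was among them (log2 8.32, SE 0.62, adjusted p = 1.3e-05). Of 6 megakaryocyte markers 4 rose (sums of 15.9 to 79.4 CPM with ICN against 3.18 to 13.5 CPM without, where Gp9 was at 0), and of 6 B cell markers 5 rose (0.715 to 116.2 CPM with ICN against 2.18 to 16.8 CPM without). Of 13 monocyte and macrophage markers tested 5 rose, the list's median log2 was 0.57 and its sums were 110.8 to 627.2 CPM with ICN against 80.2 to 242 CPM without. Among them was Csf1r, the receptor for macrophage colony-stimulating factor (log2 1.90, SE 0.22, adjusted p = 0.000217). Their part in the result was not tested. Among 29 other neutrophil genes tested 19 rose and 2 fell, with a median of 2.45. Fcgr4, an activating Fc receptor, had the lowest p of those that rose (log2 4.56, SE 0.44, adjusted p = 6.24e-05), and next by p were Plbd1 (log2 2.04, SE 0.31, adjusted p = 0.00132), Serpinb1a, an inhibitor of elastase (log2 5.97, SE 0.94, adjusted p = 0.00151), and Pirb (log2 2.45, SE 0.39, adjusted p = 0.00155).

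The comparison of p53 ko with p53 wt among ICN leukaemias asks how loss of p53 is related to these transcripts. All 39 genes had a positive fold change, against 50.4% of all genes, with a median log2 of 2.62 (all genes 0.00), but 0 of 39 passed an adjusted p of 0.05 in edgeR, where 0.195% of all genes did. At an unadjusted p under 0.05, 38 of 39 were higher, against 8.65% of all genes. The lowest adjusted p was that of Mcemp1 (log2 2.53, SE 0.52, adjusted p = 0.0774). Class medians were 3.38 for primary granule, 3.10 for secondary granule and 2.04 for late effector genes. Elane had log2 3.41, SE 0.92, adjusted p = 0.131, Camp log2 3.43, SE 0.96, adjusted p = 0.141 and Cxcr2 log2 1.91, SE 0.76, adjusted p = 0.253. Cyba again stood lowest (log2 0.22, SE 0.20, adjusted p = 0.647).

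The call depended on the tool, on the low-count filter and on 1 mouse. DESeq2 called 35 of the 39, against 6.6% of all genes it tested. With no low-count filter edgeR called 38 of the 39, against 5.28% of all genes in that fit. The lowest adjusted p of a member was 4.24e-64 there, against 0.0774 in the reported fit. The median log2 was 2.62 in both, and the cause of the gap was not tested. Without the second ICN Miz1-wt p53-ko mouse, in which 15 members had their lowest ICN level, edgeR called 10, against 0.714% of all genes in that fit: Mpo, Elane, Ctsg, Ms4a3, Pglyrp1, Cybb, Ncf1, Anxa1, Csf3r and Trem3. Without the first mouse of that group it called 0 and the median fell to 1.26.

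The p53 comparison was also made within the 3 Miz1 strata. In the Lck stratum all 39 genes were higher in both p53-ko mice than in both p53-wt mice, against 24.6% of all genes, with a median log2 of 4.38. Camp there had 696 and 454 CPM with p53 ko, against 11.3 and 7.36 CPM with p53 wt (log2 5.94 (SE 1.86)), and Cxcr2 had log2 3.12 (SE 1.37). In the Vav stratum 18 of 39 genes were higher without overlap, against 17.7% of all genes, Cyba was lower, and the median was 1.49. All 5 primary granule genes and 9 of 12 secondary granule genes were among the 18, but only 4 of 22 late effector genes (Clec5a, Ncf1, S100a9 and Trem3). Elane in the Vav stratum had 7.08 and 28.8 CPM with p53 ko, against 1.6 and 1.09 CPM with p53 wt (log2 3.73 (SE 1.62)). Cxcr2 there had 2.16 and 3.76 CPM with p53 ko, against 5.71 and 1.53 CPM with p53 wt (log2 -0.29 (SE 1.27)). In the Miz1-wt stratum 5 of 39 genes were higher without overlap (Mcemp1, Csf3r, Fpr1, Il1b and Cyba), against 15.1% of all genes, with a median of 1.98. At an unadjusted p under 0.05 there were 37 of 39 genes in the Lck stratum (10.7% of all genes), 2 in the Vav stratum (3.06%) and 8 in the Miz1-wt stratum (5.52%). None passed an adjusted p of 0.05 in any stratum, and the difference between the Vav and Lck strata passed for 0 genes (lowest adjusted p = 0.961; 11 of 39 at an unadjusted p under 0.05, against 3.74% of all genes).

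**Figure D4:**
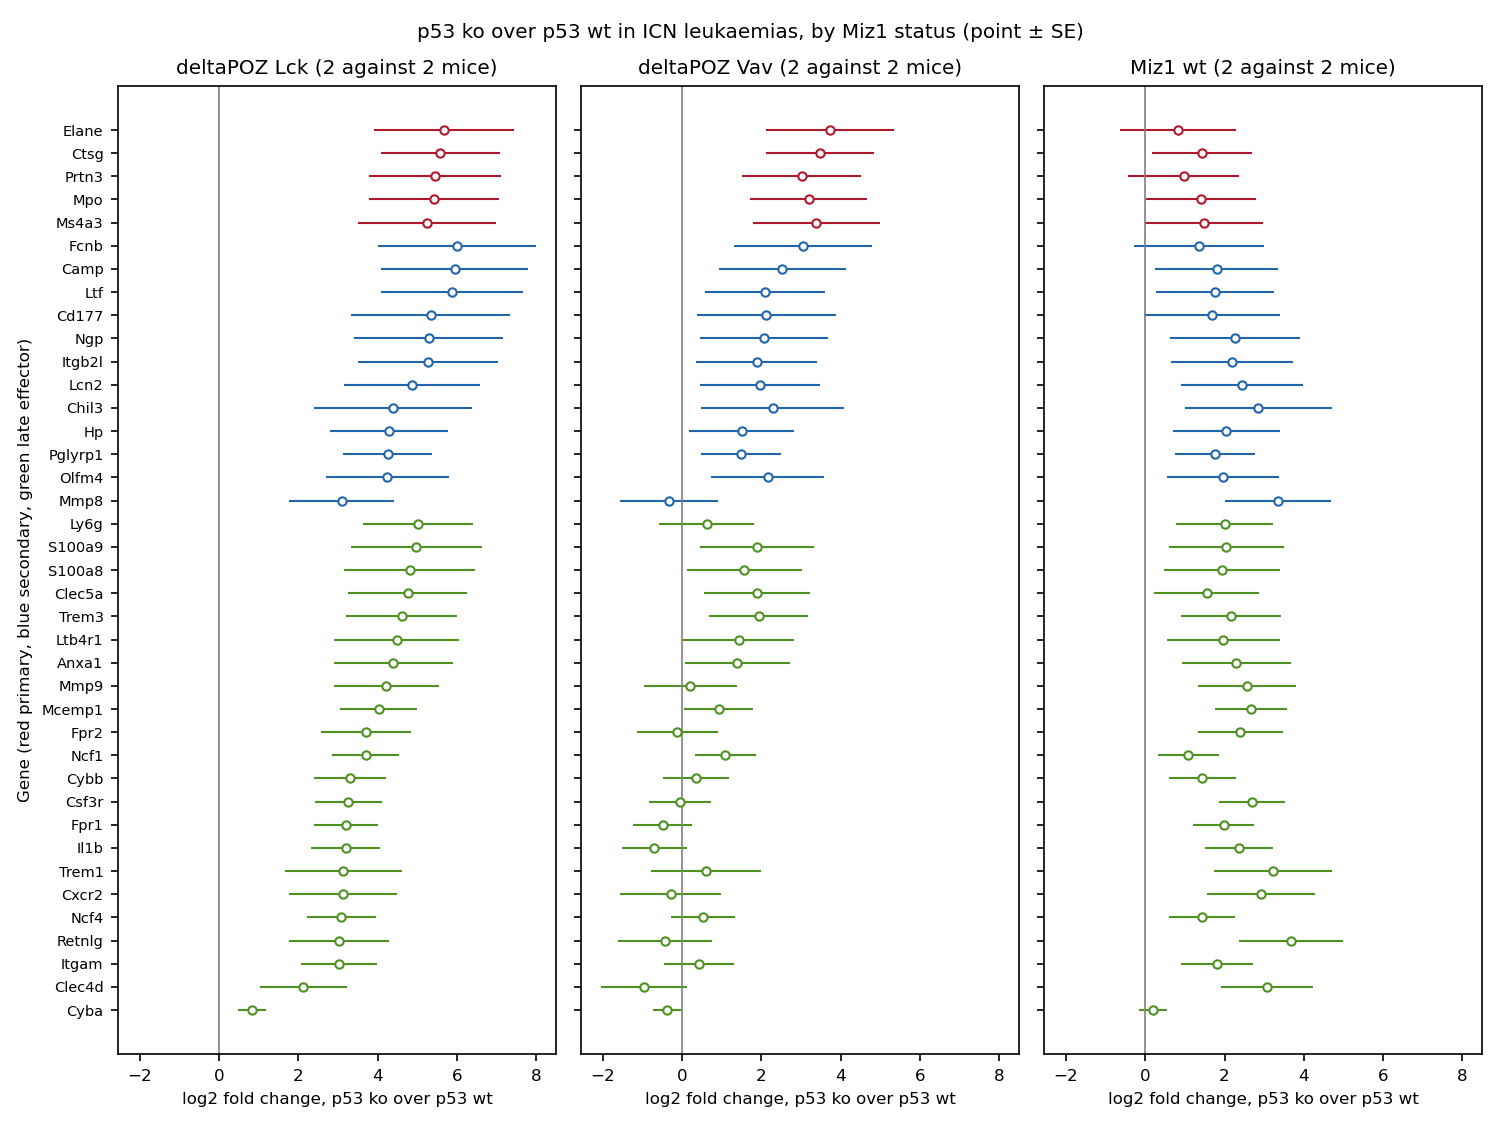
log2 fold change (point, with its SE as bar) of each gene, p53 ko over p53 wt, in ICN leukaemias of the Lck, Vav and Miz1-wt strata (2 against 2 mice each). Points lie above 0 for all genes in the Lck and Miz1-wt panels, and in the Vav panel they range from -0.96 (Clec4d) to 3.73 (Elane).

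Markers of other cells were followed in the same comparison, and 0 of the markers on these lists passed the adjusted threshold. Of 8 eosinophil, basophil and mast cell markers 7 were higher at an unadjusted p under 0.05, with a median log2 of 2.35 and sums of 8.16 to 209.9 CPM in p53-ko against 7.79 to 35.8 CPM in p53-wt ICN mice. Of 13 monocyte and macrophage markers 8 were higher at that level, with a median of 0.89 and sums of 171 to 627.2 CPM in p53-ko against 110.8 to 215.8 CPM in p53-wt ICN mice, and Vsig4 was near 0 in every library (at most 0.135 CPM). Of 6 B cell markers 0 were positive, with a median of -0.97 and sums of 0.715 to 116.2 CPM in p53-ko against 17.2 to 100.5 CPM in p53-wt ICN mice. The 11 erythroid markers had a median of 0.35 and summed to 7225 to 28031 CPM in p53-ko against 5891 to 25998 CPM in p53-wt ICN mice. The 6 megakaryocyte markers had a median of 0.28 and summed to 15.9 to 79.4 CPM in p53-ko against 18.1 to 67.8 CPM in p53-wt ICN mice. Their part in the result was not tested. Among the other neutrophil genes Fcgr3, an Fc receptor shared with monocytes, passed the adjusted threshold (log2 1.85, SE 0.27, adjusted p = 0.0267), and 23 of 29 were higher at an unadjusted p under 0.05.

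The second ICN Miz1-wt p53-ko mouse showed an uneven pattern. It was the lowest ICN library for Elane, Mpo, Camp and Ltf, yet Mcemp1 lay at 10.4 CPM there, close to the 12.8 CPM of the other mouse of its group, and Fpr1 lay at 3.19 CPM there and at 8.78 CPM in the other mouse. Its monocyte and macrophage markers summed to 315 CPM, and those of the other mouse to 273 CPM.

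The comparison of Lck with Vav among ICN deltaPOZ leukaemias gave a positive fold change for all 39 genes (51.2% of all genes), with a median log2 of 1.15, but 0 passed (0% of all genes) and the lowest adjusted p was 1. At an unadjusted p under 0.05 there were 4 (Mmp8, Ly6g, Mcemp1 and Csf3r), all higher, against 2.15% of all genes higher and 3.15% in either direction, and DESeq2 called 0. The p53 strata are given side by side. With p53 ko all 39 genes were higher in both Lck mice than in both Vav mice, against 21.2% of all genes, with a median of 2.68. Ltf there had 2138 and 1059.9 CPM in Lck mice, against 97.5 and 251 CPM in Vav mice. With p53 wt none was higher without overlap (background 16.1%), 5 were lower (Ctsg, Olfm4, Cybb, Cyba and Ncf4; background 15.5%), and the median was -0.34. Ltf there had 33.4 and 21.2 CPM in Lck mice and 68.3 and 14.1 CPM in Vav mice. The test of the difference between the strata is that of the p53 comparison above, and it passed for 0 genes. Of the markers of other cells 0 passed in this comparison. All 11 erythroid markers were positive (median log2 0.58), with sums of 10617 to 28031 CPM in Lck against 7225 to 18471 CPM in Vav mice. All 6 megakaryocyte markers were positive (median 0.39), with sums of 18.1 to 79.4 CPM in Lck against 17.2 to 67.8 CPM in Vav mice. Of 13 monocyte and macrophage markers 11 were positive (median 0.50), with sums of 111 to 627 CPM in Lck against 171 to 216 CPM in Vav mice. Of 8 eosinophil, basophil and mast cell markers 5 were positive (median 0.07), with sums of 7.79 to 209.9 CPM in Lck against 19.7 to 69.2 CPM in Vav mice. Of 6 B cell markers 0 were positive (median -0.47), with sums of 25 to 90 CPM in Lck against 64.8 to 116 CPM in Vav mice. Their part in the result was not tested.

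The comparison of Miz1 deltaPOZ with Miz1 wt is the question of the series. Averaged over the 3 backgrounds 0 of the 39 genes were called (0.0172% of all genes), and 0 reached an unadjusted p under 0.05, where 4.92% of all genes did. DESeq2 called 0. In ICN p53-ko leukaemias 0 were called (0.00572% of all genes), 0 had an unadjusted p under 0.05 (3.78% of all genes), the median log2 fold change was 0.47, and all 39 genes overlapped between deltaPOZ and Miz1-wt mice, against 4.4% of all genes higher and 4.5% lower without overlap. Elane had 1.63 (SE 1.35), Camp 1.12 (SE 1.37) and Cxcr2 -0.96 (SE 1.07). The Miz1-wt values there came from the most unequal pair of mice. In ICN p53-wt leukaemias 0 were called (0% of all genes), 0 had an unadjusted p under 0.05 (1.87%), and the median was -0.54, with class medians of -1.57 for primary granule, -0.85 for secondary granule and 0.36 for late effector genes. Elane had -2.25 (SE 1.22), Camp -1.30 (SE 1.27) and Cxcr2 0.54 (SE 1.13). Csf3r and Clec4d were the 2 genes whose 4 deltaPOZ libraries all lay above both Miz1-wt libraries, against 5.45% of all genes, and 0 lay below them (5.95%). Csf3r had 5.07 and 2.44 CPM in Lck and 7.49 and 2.2 CPM in Vav mice, against 2.1 and 1.19 CPM in Miz1-wt mice.

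Without ICN 0 of the 39 were called (0% of all genes), 0 had an unadjusted p under 0.05 (7.68%), and many granule genes had only a few counts. The 2 deltaPOZ mice lay above both Miz1-wt mice in 10 genes (12.8% of all genes) and below them in 4 (13.2%). The 10 were Mpo, Camp, Ltf, Olfm4, S100a8, S100a9, Fpr2, Il1b, Clec5a and Trem1, all at 0.618 CPM or less there, and the 4 were Retnlg, Anxa1, Csf3r and Cybb. The difference between the deltaPOZ effects in p53-ko and p53-wt ICN leukaemias passed for 0 of the 39 (0% of all genes), and 0 had an unadjusted p under 0.05 (2.6%), with a median of 0.98. Class medians of this difference were 3.09 for primary granule, 1.31 for secondary granule and -0.03 for late effector genes, and Elane had log2 3.88, SE 1.86, adjusted p = 1. These misses do not show that deltaPOZ and Miz1 wt act alike: the SE of Elane was 1.35 with ICN p53 ko, 1.22 with ICN p53 wt and 3.37 without ICN on the log2 scale.

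Whether genes of different stages moved together was tested over the 12 ICN mice with 1 gene per class, as log2(CPM + 0.1) and a two-sided permutation test of 100000 resamples, adjusted over 3 pairs. Elane and Camp had a Pearson r of 0.969 (adjusted permutation p = 3e-05, from the smallest p these resamples can give, 1e-05) and a Spearman rho of 0.979 (adjusted permutation p = 3e-05). Camp and Cxcr2 had r = 0.901 (adjusted permutation p = 0.00015) and rho = 0.874 (adjusted permutation p = 0.000645). Elane and Cxcr2 had r = 0.79 (adjusted permutation p = 0.00231) and rho = 0.811 (adjusted permutation p = 0.0024). Without the 2 libraries farthest from the median of the first gene of a pair, r was 0.955, 0.827 and 0.715 in that order of pairs. The libraries left out differed by pair. For both Elane pairs they were the second ICN Lck p53-ko and the second ICN Miz1-wt p53-ko mouse. For Camp and Cxcr2 they were both ICN Lck p53-ko mice. The mice share groups, so these values describe the pooled ICN mice.

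Ratios of counts between named genes were followed across the ICN libraries. Over ICN libraries the count ratio of Ltf to Camp ran from 1.9 to 3.07 and that of Prtn3 to Elane from 0.825 to 2.44. Camp per Elane ran from 4.1 to 18.4, and Cxcr2 per Elane from 0.13 to 4.89. Cxcr2 per Camp was 0.0509 and 0.0416 in Lck and 0.0587 and 0.0285 in Vav mice with p53 ko, against 0.355 and 0.304 in Lck and 0.245 and 0.258 in Vav mice with p53 wt. The 4 deltaPOZ p53-ko libraries thus lay below the 4 deltaPOZ p53-wt libraries. With Miz1 wt the ratios were 0.17 and 0.383 with p53 ko, against 0.0759 and 0.159 with p53 wt, so the order there was the other way round. These ratios were set out after the levels had been seen and carry no test.

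**Figure D5:**
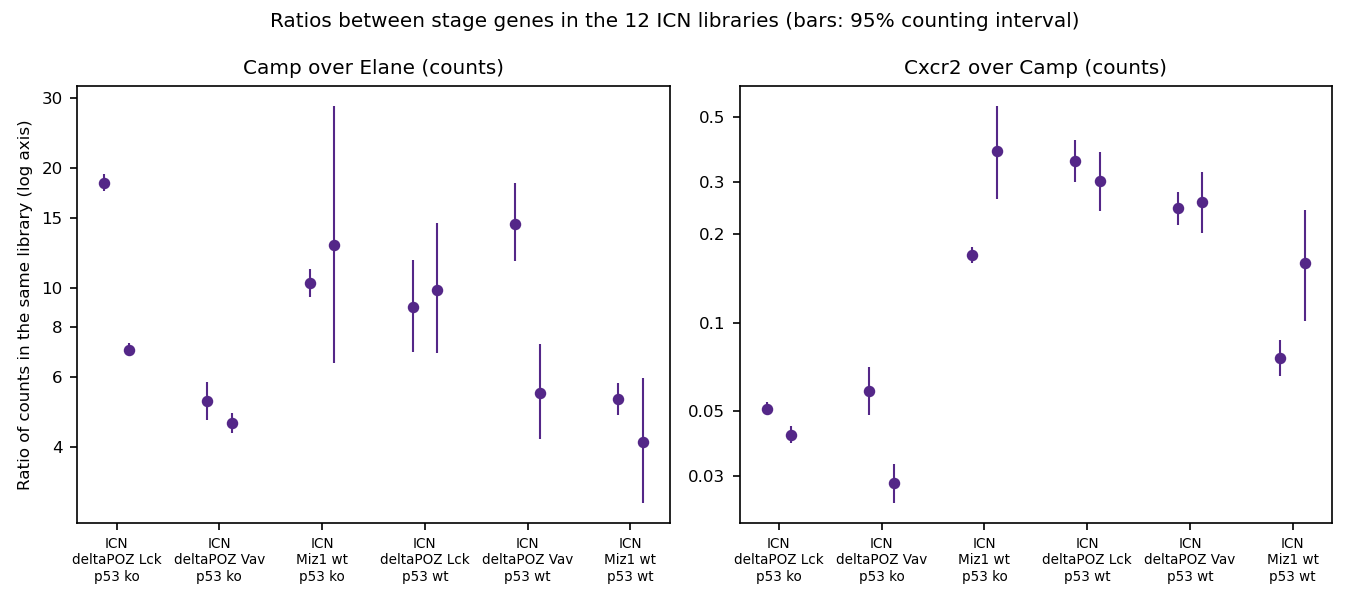
Count ratios of Camp to Elane (left) and Cxcr2 to Camp (right) in each of the 12 ICN libraries on log axes, with 1 point per mouse and its exact 95% interval, which covers counting error only. In the right panel the 4 deltaPOZ p53-ko points lie at 0.0285 to 0.0587 and the 4 deltaPOZ p53-wt points at 0.245 to 0.355.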

How the data were processed

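Messenger RNA was sequenced from 16 mice, 1 library each (TruSeq Stranded mRNA, per the labels' protocols). The deposited values are raw counts per Ensembl gene; the submitters' processing notes name HTSeq, TopHat2 2.0.10, DESeq and SAMtools, with builds mm10 and GRCm38. No label gives the annotation release or the strand setting. The 5 totals lines of each table, with non-unique alignments at 45.81% to 63.74% of a library, were left out, so genes with near-identical copies are undercounted. Replicate numbers follow accession order. Replicates differed well beyond sampling noise (chi-square per gene 94.4 to 334.4), so none was counted as a duplicate.

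Names, coordinates and overlaps came from GENCODE M21 on GRCm38. All genes were fitted together in R 4.3.3 with edgeR 4.0.16 (TMM scaling, filterByExpr leaving 17470 genes, 8 group means, 8 residual degrees of freedom, common dispersion 0.208) and tested with the quasi-likelihood F test, Benjamini-Hochberg adjusted over all genes at 0.05. An SE was taken as the absolute log2 fold change over √F. CPM values use the TMM factors. The fit was also run on counts simulated from its own dispersion estimates, with changes planted in some genes. That run drew each gene independently and did not model mice in which many genes shift together. It is therefore no check of the member results. Alternatives were DESeq2 1.42.0, its size factors, no filter, only the groups compared and leaving out each mouse. The members and lists were chosen with earlier results of these data known.

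Values in single mice are given for the members with the highest mean log2 CPM (3 per class, 5 late effectors), for Elane, Camp and Cxcr2, and, as lowest, median and highest over ICN mice, for those called; of other lists up to 4 genes called per comparison are named. Other genes, such as those of a count of 5 or fewer and the 14 without overlap between deltaPOZ and Miz1 wt without ICN, were named after their values were seen. The replicates are separate mice. Each edgeR p-value of the reported fit rests on a spread estimated over all 8 groups together, not on the compared mice alone. The permutation p-values of the correlations shuffle the 12 ICN mice without regard to group, so they do not measure the spread between replicates.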

Additional observations from a re-analysis of the deposited data

Results flagged for a closer look

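Some genes had values on opposite sides under the same contrast in different groups, without overlap between the mice compared in each, but no difference passed its test. Values are log2 ratios of group mean CPM with 0.1 added, and each difference was tested as an interaction in the edgeR fit.

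Csf3r was higher in deltaPOZ than in Miz1-wt mice of the ICN p53-wt background (1.33) and lower without ICN (-0.741), where 5.45% of all genes lay higher and 13.2% lower without overlap. The difference did not pass (log2 -2.23, SE 1.09, adjusted p = 0.977). Cyba was higher with p53 ko than with p53 wt in Miz1-wt (0.201) and Lck mice (0.839) and lower in Vav mice (-0.384). Of all genes, 15.1% and 24.6% lay higher without overlap in Miz1-wt and Lck mice and 18.7% lower in Vav mice. The difference did not pass between Vav and Lck (log2 -1.23, SE 0.50, adjusted p = 1) or between Vav and Miz1 wt (log2 -0.59, SE 0.50, adjusted p = 1).

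Under Lck over Vav, 5 genes were higher with p53 ko and lower with p53 wt. Ctsg had 1.67 with p53 ko and -0.404 with p53 wt (difference log2 2.11, SE 1.78, adjusted p = 1), and Olfm4 had 1.27 with p53 ko and -0.457 with p53 wt (log2 2.08, SE 1.99, adjusted p = 1). Cybb had 2.28 with p53 ko and -0.685 with p53 wt (log2 2.97, SE 1.20, adjusted p = 1). Cyba had 0.844 with p53 ko and -0.38 with p53 wt (log2 1.23, SE 0.50, adjusted p = 1). Ncf4 had 2.17 with p53 ko and -0.356 with p53 wt (log2 2.54, SE 1.16, adjusted p = 1). With 2 mice a side, the share of all genes higher without overlap was 21.2% with p53 ko, and that lower without overlap was 15.5% with p53 wt.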

How the results depend on the processing

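Of the 39 members, ICN over no ICN called 35 in the reported fit, against 12.9% of all genes called higher. It called 34 with only the groups of the comparison fitted, 36 with DESeq2 and 36 with no low-count filter. These counts, and those without single mice, rest largely on the 22 genes that passed the reported filter through ICN libraries only. The calls of those 22 are a description. Of the other 17 genes, 13 were called in the reported fit. Leaving out single mice gave 28 to 36 calls for ICN, 0 to 10 for p53 and 0 for Lck over Vav and each deltaPOZ comparison. For p53 ko over p53 wt, where 0 were called, DESeq2 gave 35 (6.6% of all genes), no filter 38 (5.28%) and the fit without the second ICN Miz1-wt p53-ko mouse 10 (0.714%). With no filter the counts also rose from 0 in Lck over Vav (14; 0.92% of all genes), in deltaPOZ over Miz1 wt with ICN p53 wt (7; 0.701%), ICN p53 ko (4; 1.54%) and no ICN (2; 2.48%), and in the difference of the deltaPOZ effects (12; 1.26%). That fit tested 30095 genes, called 502 of them in the averaged deltaPOZ comparison against 3 in the reported fit, and gave adjusted p down to 4.24e-64; the cause was not tested. For ICN over no ICN, Clec4d and Cyba, neither called, changed sign when single mice were left out. Clec4d ranged over log2 -0.537 to 1.65, with the lowest value without the first ICN Miz1-wt p53-ko mouse. Cyba ranged over -0.313 to 0.343, with 0.0839 and 0.343 without the second no-ICN Miz1-wt mouse and the second no-ICN Vav mouse. The fits of single p53 or suffix strata were added after seeing the data. No paired analysis was possible because replicate numbers follow accession order and pair no mice.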
